A study of Mus musculus with 12 samples.

Results

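A set of 10 genes of the endothelium, the cell layer that lines blood vessels, were followed through 2 hindlimb muscles of mice kept on the ground or flown in space. The genes were taken from a list of endothelial names, *Cdh5*, *Pecam1*, *Cldn5*, *Kdr*, *Flt1*, *Tek*, *Tie1*, *Eng*, *Emcn* and *Vwf*, and not by a rule on their values. Earlier results of these data were known when the list was chosen. All 10 were found among the 36008 gene identifiers of the deposited expression table, and all 10 were among the 10481 genes that reached more than 5 TPM (transcript abundance scaled for transcript length and for the library total) in at least 1 library. The gastrocnemius and quadriceps of 6 mice gave 12 RNA libraries in 4 groups of 3: ground gastrocnemius, flight gastrocnemius, ground quadriceps and flight quadriceps. Mice 2, 3 and 8 stayed on the ground and mice 11, 12 and 20 spent 9 weeks on the International Space Station. By the study's methods all were females of 30 weeks at the start, all received repeated injections of phosphate-buffered saline as the control arm of a bone drug trial, and the ground mice lived in the same cage hardware. The methods name the strain BALB/c and the sample labels name it C57BL/6. The carcasses were frozen and then thawed before the left hindlimb muscles were dissected, and whole muscle was extracted.

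Skeletal muscle fibers are wrapped in a dense capillary bed, and the endothelium of these capillaries carries oxygen, glucose and fatty acids to the fiber. Endothelial cells hold to each other through cadherin, PECAM1 and claudin contacts, and they read growth and stability signals through receptors for VEGF, for angiopoietin and for ligands of the BMP family. In whole muscle, endothelial transcripts are a small part of the RNA beside those of the fiber. Fewer endothelial cells and less RNA per endothelial cell cannot be told apart in such bulk samples.

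The endothelial genes were low beside the fiber genes and were read in every library. Their 10 values summed to between 130 and 181 TPM, whereas 8 muscle fiber genes such as *Myh4* and *Ckm* summed to between 87400 and 130000 TPM. No member was listed at 0 in any library. The TPM of a library, which carry no counting depth, summed to between 923295 and 966638, and the quadriceps of mouse 8 listed the fewest genes above 0, 18172 against 20291 to 21265 elsewhere. Since TPM are set per length, levels can be ordered across genes. *Flt1*, *Pecam1* and *Cdh5* formed the top of the order in all 12 libraries. By group means *Eng* and *Kdr* followed, *Vwf*, *Tie1* and *Tek* lay close together below them, and *Emcn* and *Cldn5* were lowest. In the flight gastrocnemius of mouse 12 *Tie1* (11.8 TPM) stood just above *Kdr* (11.6 TPM). In the ground gastrocnemius the group means ran from 33.9 ± 6.03 TPM for *Flt1* (SD, n = 3, as for every group below) to 5.67 ± 0.496 TPM for *Emcn*. Neighbors in this order mostly overlapped. In the ground gastrocnemius the values of *Flt1* and *Pecam1*, of *Cdh5* and *Eng*, of *Vwf* and *Tie1*, of *Tie1* and *Tek* and of *Cldn5* and *Emcn* overlapped, while *Eng* lay above *Kdr*, and *Kdr* above *Vwf*, in all 3 libraries.

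**Figure D1:**
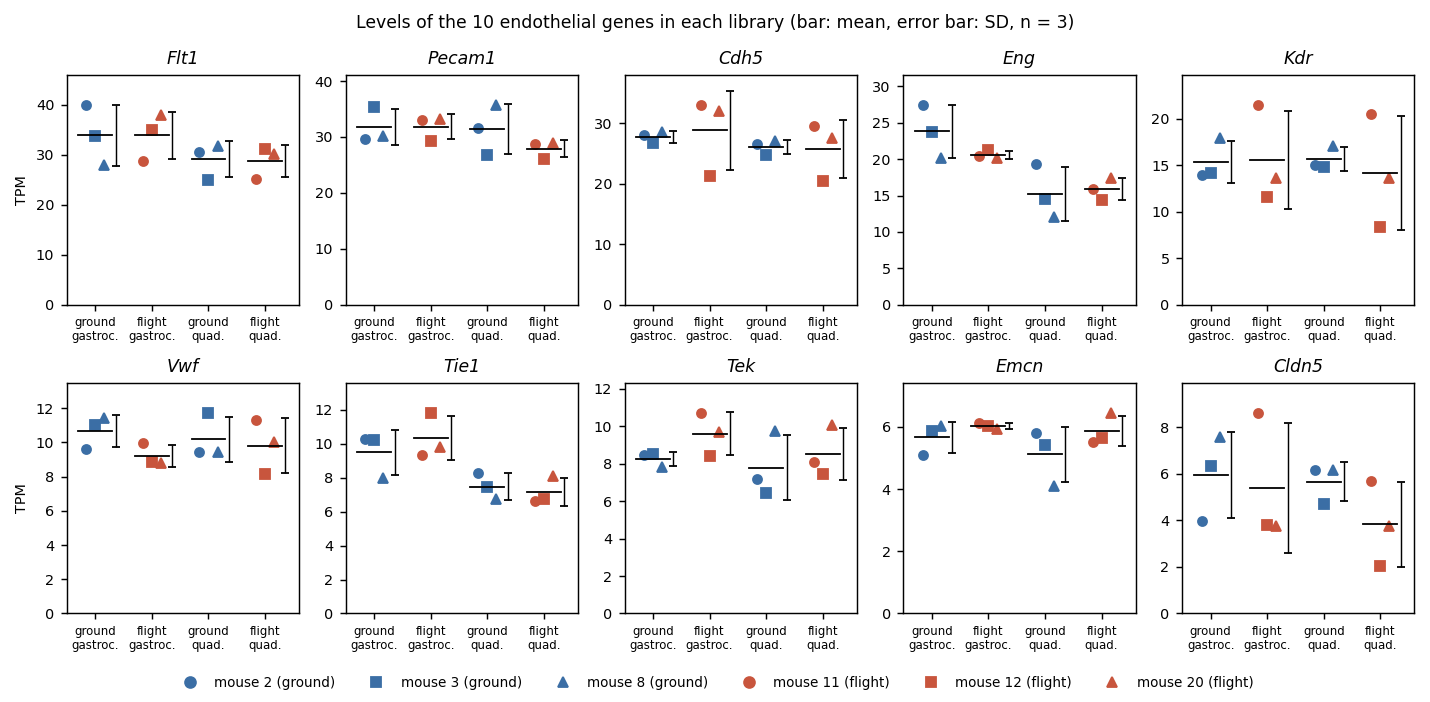
Each panel plots the TPM of 1 endothelial gene (vertical axis from 0) in the 4 groups; each point is a library, its shape and color give the mouse, the line is the group mean and the error bar the SD of 3 libraries. Ground and flight points overlap for all 10 genes within both muscles, *Eng* and *Tie1* sit lower in the quadriceps, and the flight points of *Kdr* and *Cldn5* are widely spread.

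To ask whether 9 weeks of flight changed the capillary endothelium, the flight and ground mice were set against each other, muscle by muscle, with limma on log2(TPM + 1), fitted across all 10481 genes. No endothelial gene passed an adjusted p of 0.05 with a change over 1.5-fold in either muscle, and none reached an unadjusted p of 0.05. Across all genes 0.229% were called in the gastrocnemius and 0.0286% in the quadriceps. At an unadjusted p under 0.05 the shares over all genes were 15.1% and 10.8%. With DESeq2 at the same limits on adjusted p and fold change, the study called more genes in each muscle, so a missing call here is weak evidence of no change. The flight and ground values overlapped for all 10 members in both muscles, whereas over all genes the groups were separate for 21% (gastrocnemius) and 17.4% (quadriceps). In the gastrocnemius 6 members had a log2 fold change above 0 and 4 below, with a median of 0.01 beside 0.02 over all genes, but after rescaling each library by its median ratio 4 lay above 0 and 6 below. In the quadriceps 3 lay above 0 and 7 below, with a median of -0.04 beside 0.01 over all genes. Without mouse 12 the quadriceps median became 0.079.

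The precision of these comparisons differed between members. In the gastrocnemius the 95% interval of the log2 fold change stayed within 1.5-fold in both directions for 9 of the 10 genes, the exception being *Cldn5*. In the quadriceps it did so for 8 of the 10, the exceptions being *Cldn5* and *Kdr*. Each interval was taken for 1 gene without adjustment and on the log2(TPM + 1) scale, which understates the change of low genes. With a pseudocount of 0.1 the counts were 9 and 6, the upper limits of *Tek* (0.63) and *Emcn* (0.65) in the quadriceps then passing 1.5-fold. Adjusted p-values from limma ran from 0.426 to 0.991 in the gastrocnemius and from 0.554 to 0.974 in the quadriceps. A test of the difference in flight effect between the muscles, with mouse as a block, called none of the members, whose smallest adjusted p was 0.957. Over all genes it called 0 (0%), with 534 (5.09%) at an unadjusted p under 0.05.

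**Figure D2:**
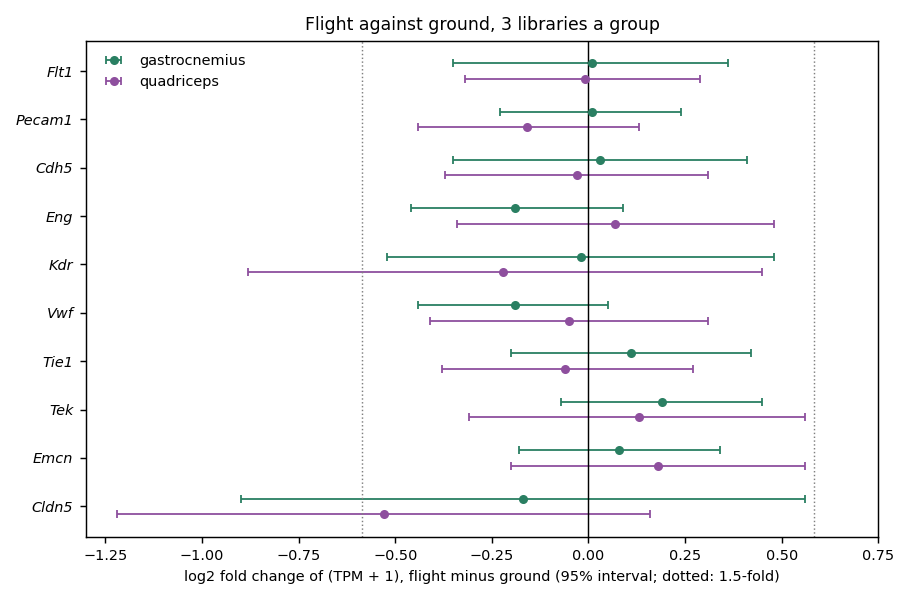
The horizontal axis is the log2 fold change of TPM + 1, flight minus ground, for each of the 10 endothelial genes in the gastrocnemius (green) and the quadriceps (purple); points are limma estimates, bars their 95% intervals and dotted lines 1.5-fold. Every interval crosses 0, and the 2 widest belong to *Cldn5*, from -0.90 to 0.56 in the gastrocnemius and from -1.22 to 0.16 in the quadriceps.

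Among the junction genes, *Cdh5* encodes VE-cadherin, the adherens junction protein particular to endothelium. Its levels in the gastrocnemius were 28.1, 26.7 and 28.5 TPM on the ground and 33.1, 21.3 and 32.1 TPM after flight. In the quadriceps they were 26.5, 24.7 and 27 TPM on the ground and 29.5, 20.4 and 27.5 TPM after flight. The ground mice lay within 2 TPM of each other in the gastrocnemius, and the flown mice lay on both sides of them in both muscles, with mouse 12 lowest each time. The log2 fold change was 0.03 (SE 0.162) in the gastrocnemius and -0.03 (SE 0.144) in the quadriceps. *Pecam1* encodes the adhesion protein CD31, held at endothelial contacts and also made by platelets and some leukocytes. It measured 29.7, 35.4 and 30.2 TPM in the ground gastrocnemius and 33.1, 29.2 and 33.3 TPM in the flight gastrocnemius. In the quadriceps it measured 31.6, 26.8 and 35.8 TPM on the ground and 28.7, 26.1 and 29 TPM after flight. The quadriceps groups overlapped, mouse 12 being the lowest of the 6, and the log2 fold change there was -0.16 (SE 0.12, limma adjusted p = 0.662). *Cldn5* encodes claudin-5, the tight junction protein that seals endothelial contacts. It read 3.95, 6.34 and 7.58 TPM in the ground gastrocnemius, 8.59, 3.8 and 3.75 TPM in the flight gastrocnemius, 6.14, 4.68 and 6.14 TPM in the ground quadriceps and 5.68, 2.03 and 3.77 TPM in the flight quadriceps. *Cldn5* was widely spread, with a coefficient of variation of 51.7% and 47.7% in the flight groups and of 31% and 14.9% in the ground groups, the gastrocnemius first. Its log2 fold change in the quadriceps, -0.53 (SE 0.293, limma adjusted p = 0.554), was the largest in size of the members' flight estimates in both muscles and did not exceed the spread between mice.

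Of the VEGF receptors, *Flt1* encodes VEGFR1, which binds VEGF tightly and, in its soluble form, acts as a decoy. Its levels were 40, 33.7 and 27.9 TPM in the ground gastrocnemius, 28.7, 35 and 37.9 TPM in the flight gastrocnemius, 30.6, 25 and 31.7 TPM in the ground quadriceps and 25.1, 31.1 and 30.1 TPM in the flight quadriceps. The flight groups had nearly the same means as the ground groups, 33.9 ± 4.72 against 33.9 ± 6.03 TPM and 28.8 ± 3.22 against 29.1 ± 3.61 TPM. *Kdr* encodes VEGFR2, the main signaling receptor for VEGF in endothelium. It measured 13.9, 14.2 and 17.9 TPM in the ground gastrocnemius, 21.5, 11.6 and 13.6 TPM in the flight gastrocnemius, 15, 14.8 and 17.1 TPM in the ground quadriceps and 20.5, 8.32 and 13.6 TPM in the flight quadriceps. Mouse 11 was highest of the 6 mice and mouse 12 lowest in both muscles, so the flown mice stood at both ends of the range. The coefficient of variation of *Kdr* was 33.7% and 43.1% in the flight groups and 14.6% and 8.26% in the ground groups, a difference in spread between 3 mice and 3 mice that was not tested.

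*Tek* encodes TIE2, the receptor through which angiopoietins keep capillaries stable, and *Tie1* encodes its partner receptor. *Tek* measured 8.45, 8.52 and 7.85 TPM in the ground gastrocnemius, 10.7, 8.42 and 9.7 TPM in the flight gastrocnemius, 7.17, 6.44 and 9.75 TPM in the ground quadriceps and 8.08, 7.43 and 10.1 TPM in the flight quadriceps. Its log2 fold changes, 0.19 (SE 0.112) and 0.13 (SE 0.184), were both above 0 and within the spread between mice. *Tie1* measured 10.3, 10.2 and 7.98 TPM in the ground gastrocnemius, 9.33, 11.8 and 9.84 TPM in the flight gastrocnemius, 8.26, 7.47 and 6.72 TPM in the ground quadriceps and 6.65, 6.73 and 8.11 TPM in the flight quadriceps. The ground and flight values of *Tie1* overlapped in each muscle.

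*Eng* encodes endoglin, the co-receptor that brings BMP9 and BMP10 to ALK1 on endothelium. Its levels were 27.5, 23.7 and 20.2 TPM in the ground gastrocnemius, 20.4, 21.2 and 20.2 TPM in the flight gastrocnemius, 19.3, 14.5 and 12 TPM in the ground quadriceps and 15.9, 14.4 and 17.4 TPM in the flight quadriceps. The flight values lay inside the ground range in the quadriceps and at its lower end in the gastrocnemius, where the log2 fold change was -0.19 (SE 0.118, limma adjusted p = 0.486). *Emcn* encodes endomucin, a sialomucin of capillary and venous endothelium, and stayed between 4.11 and 6.44 TPM in all 12 libraries. *Vwf* encodes von Willebrand factor, the clotting protein stored in endothelium of larger vessels and in platelets, and stayed between 8.15 and 11.7 TPM. Their flight estimates were 0.08 (SE 0.111) and 0.18 (SE 0.161) for *Emcn* and -0.19 (SE 0.105) and -0.05 (SE 0.154) for *Vwf* on the log2 scale, the gastrocnemius first.

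To ask how the endothelium differed between the muscles, the quadriceps was compared with the gastrocnemius of the same mouse, in 1 fit that took all 12 libraries and the mouse as a block. *Eng* was lower in the quadriceps of the ground mice, with a log2 fold change of -0.62 (SE 0.0958, limma adjusted p = 0.012), a 1.54-fold difference on the TPM + 1 scale. It was the only member of the 10 called, where 3.2% of all genes were called and 1.83% had an adjusted p under 0.05 in this direction. After flight *Eng* again had an adjusted p under 0.05 but a smaller difference, -0.36 (SE 0.0958, limma adjusted p = 0.043, 1.28-fold), which did not reach the 1.5-fold limit. *Tie1* was at -0.30 (SE 0.119, limma adjusted p = 0.131) on the ground and at -0.47 (SE 0.119, limma adjusted p = 0.0374, 1.38-fold) after flight, again under 1.5-fold. After flight 3.34% of all genes were called and 1.81% had an adjusted p under 0.05 in the lower direction. The test of the ground difference against the flight difference was not passed, with a limma adjusted p of 0.957 for *Eng* (0.26, SE 0.136, 95% interval -0.05 to 0.57) and of 0.976 for *Tie1* (-0.17, SE 0.168). The *Eng* call on the ground rested on all 3 mice: leaving out mouse 2, 3 or 8 gave estimates of -0.69, -0.59 and -0.58 with adjusted p of 0.0529, 0.0711 and 0.0663. After flight, leaving out any 1 of the 6 mice took *Eng* to an adjusted p between 0.056 and 0.223, and *Tie1* to between 0.0479 and 0.206, the lowest of these being without mouse 8.

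Mouse by mouse, *Eng* was lower in the quadriceps in 6 of 6 animals, by -0.49, -0.67 and -0.70 on the log2 scale in mice 2, 3 and 8 and by -0.34, -0.53 and -0.21 in mice 11, 12 and 20. *Tie1* was also lower in 6 of 6, with differences from -0.72 in mouse 12 to -0.22 in mouse 8. *Cdh5* was the third gene lower in 6 of 6, but only slightly, with differences from -0.22 to -0.06 and a limma adjusted p of 0.486 on the ground and 0.247 after flight. Over all genes 4.96% were lower in the quadriceps of all 6 mice. *Kdr* and *Vwf* split, 3 mice each way, and the other members were lower in 4 or 5 mice. Between the groups, *Eng* values did not overlap on the ground, and those of *Eng*, *Tie1* and *Pecam1* did not overlap after flight, each lower in the quadriceps, where 5.52% and 6% of all genes were separated in that direction.

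**Figure D3:**
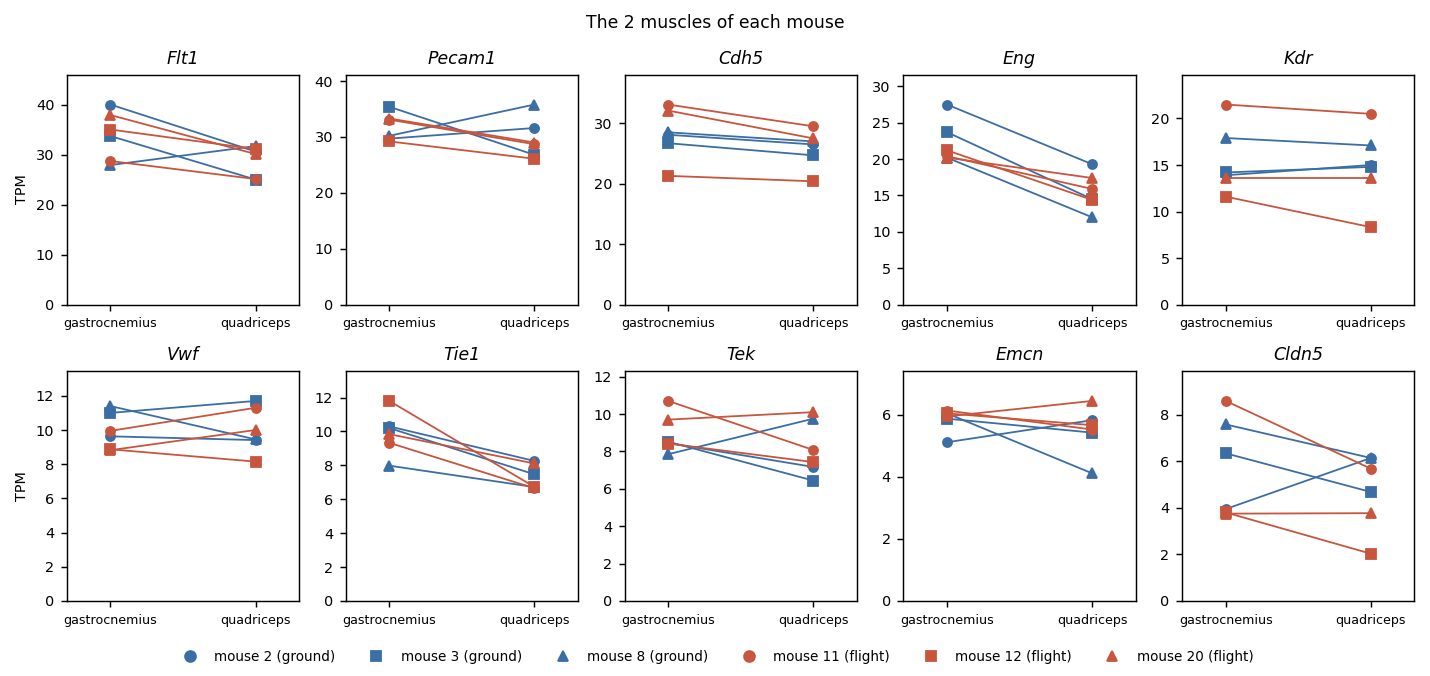
Each panel plots the TPM of 1 endothelial gene (vertical axis from 0) in the gastrocnemius and quadriceps of the same animal, with a line per mouse, blue for ground and red for flight. All 6 lines of *Eng*, *Tie1* and *Cdh5* go down toward the quadriceps, those of *Cdh5* by at most 0.22 on the log2 scale.

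The members as a list, which was chosen with earlier results known and was not tested as a set, leaned the same way. On the ground 9 of 10 had a log2 fold change below 0, with a median of -0.09, whereas the median of all genes was 0.12 and 32.3% of all genes lay below 0. After flight 9 of 10 lay below 0, with a median of -0.17 beside 0.11 over all genes, of which 33.3% lay below 0. The exceptions were *Kdr* on the ground (0.03) and *Vwf* after flight (0.08). The ground tally rested on single mice: 4 members lay above 0 without mouse 3, 4 without mouse 8 and 0 without mouse 2, with medians of -0.087, -0.123 and -0.106. After flight 2 lay above 0 without mouse 11 and 1 without mouse 12 or 20. When each library was rescaled by its median ratio, which removes most of the shift over all genes (medians of -0.010 and -0.020), all 10 lay below 0 in both conditions, *Kdr* at -0.10 and *Vwf* at -0.05. Their medians were then -0.220 and -0.308, *Eng* was called on the ground (-0.75, limma adjusted p = 0.00816) and *Tie1* after flight (-0.60, limma adjusted p = 0.0278). The same rescaling turned the share of higher calls over all genes from 69.6% of 335 to 32.6% of 230 on the ground and from 70% of 350 to 36.3% of 248 after flight.

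Markers of other cells moved with the muscle too. The fiber list summed to between 87400 and 94400 TPM in the gastrocnemius and between 115000 and 130000 TPM in the quadriceps, with no overlap. The mural list, 12 genes of the pericytes and smooth muscle cells that surround vessels, summed to between 339 and 375 TPM in the gastrocnemius and between 310 and 346 TPM in the quadriceps. Of its 11 genes tested, 9 lay below 0 in each condition, with medians of -0.28 and -0.35, and 3 had an adjusted p under 0.05, none of them past 1.5-fold. Myelin and Schwann cell genes summed to between 153 and 330 TPM in the gastrocnemius and between 58.9 and 93.5 TPM in the quadriceps, and 6 of 6 tested genes were called lower on the ground and 5 of 6 after flight. Over all genes 3.2% were called on the ground and 3.34% after flight, in either direction. The shares lower with an adjusted p under 0.05 were 1.83% and 1.81%. Macrophage genes, some of whose cells also make *Pecam1*, ranged from 40.6 to 60.9 TPM in the gastrocnemius and from 48.4 to 74 TPM in the quadriceps. The part of these cells in the endothelial differences was not tested.

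The sequence before the start of each gene is shown for the 2 members that were lower in the quadriceps of every mouse by the larger margins, *Eng* and *Tie1*, and for *Kdr* and *Cldn5*, whose levels followed each other across libraries. RefSeq starts on build GRCm38.p6 were matched for 7 of the 10 members, namely these 4 with *Flt1*, *Tek* and *Emcn*. Each run is the 250 bases before the start, 5′ to 3′ on the gene's strand, and capitals mark AGGAAG or its reverse complement CTTCCT, a core form of the site read by ETS factors such as ERG and FLI1, which drive many endothelial genes. The windows are chr2:32646345-32646594 (plus strand) for *Eng*, chr4:118489850-118490099 (minus) for *Tie1*, chr5:75978456-75978705 (minus) for *Kdr* and chr16:18776597-18776846 (plus) for *Cldn5*.
Eng: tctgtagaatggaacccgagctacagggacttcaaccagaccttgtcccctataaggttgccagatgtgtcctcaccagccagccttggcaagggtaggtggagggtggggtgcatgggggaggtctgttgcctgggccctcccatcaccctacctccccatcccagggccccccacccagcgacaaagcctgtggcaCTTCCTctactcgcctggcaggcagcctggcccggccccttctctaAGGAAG
Tie1: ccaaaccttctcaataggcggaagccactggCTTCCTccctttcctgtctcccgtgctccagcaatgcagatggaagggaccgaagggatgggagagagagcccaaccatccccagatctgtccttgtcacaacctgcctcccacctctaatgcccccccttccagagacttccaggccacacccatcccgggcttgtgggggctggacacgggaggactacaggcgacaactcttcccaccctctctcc
Kdr: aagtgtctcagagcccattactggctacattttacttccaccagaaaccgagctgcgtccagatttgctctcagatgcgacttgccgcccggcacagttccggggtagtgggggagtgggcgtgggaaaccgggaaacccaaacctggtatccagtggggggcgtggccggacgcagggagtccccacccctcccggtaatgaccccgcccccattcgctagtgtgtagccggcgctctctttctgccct
Cldn5: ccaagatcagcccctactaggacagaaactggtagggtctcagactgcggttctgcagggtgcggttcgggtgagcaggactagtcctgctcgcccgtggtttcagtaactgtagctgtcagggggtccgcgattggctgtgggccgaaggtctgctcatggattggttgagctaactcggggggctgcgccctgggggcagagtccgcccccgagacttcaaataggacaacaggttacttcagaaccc

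The motif was held by 4 of the 7 member promoters (*Eng*, *Tie1*, *Flt1* and *Emcn*) and by 29.2% of the 27025 promoters of the same length. In *Eng* 2 copies began 52 and 6 bases before the start, and in *Tie1* the copy began 219 bases before the RefSeq start. A second gene annotation of this build starts *Tie1* further upstream, at chr4:118490061, so most of the *Tie1* window lies inside that gene model. The GATA letters AGATAA or TTATCT were in none of the 7, against 10.3% of all promoters. A match describes these letters in this window and no more.

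Across the 12 libraries the members did not move as 1 block. The Pearson correlation of log2(TPM + 1) between members ranged from -0.62 (*Flt1* with *Vwf*) to 0.89 (*Kdr* with *Cldn5*), with a median of 0.20 over 45 pairs, 12 of them above 0.5 and 11 below 0. These are descriptions over 12 libraries that share 6 mice and 2 muscles. *Kdr* and *Cldn5* stayed at 0.91 when each group's mean was taken out, so their common movement lay between mice of a group. *Kdr* with *Cdh5* was at 0.78 and at 0.81 around the group means. *Tie1* with *Eng* was at 0.84 and at 0.76, the muscle difference being part of the first value. *Kdr* and *Flt1*, the receptors that share VEGF, ran against each other at -0.45 and at -0.63 around the group means. Taken as the mean of the members' standardized values, the lowest library was the flight quadriceps of mouse 12 (-1.26) and the highest the flight gastrocnemius of mouse 11 (0.79).

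**Figure D4:**
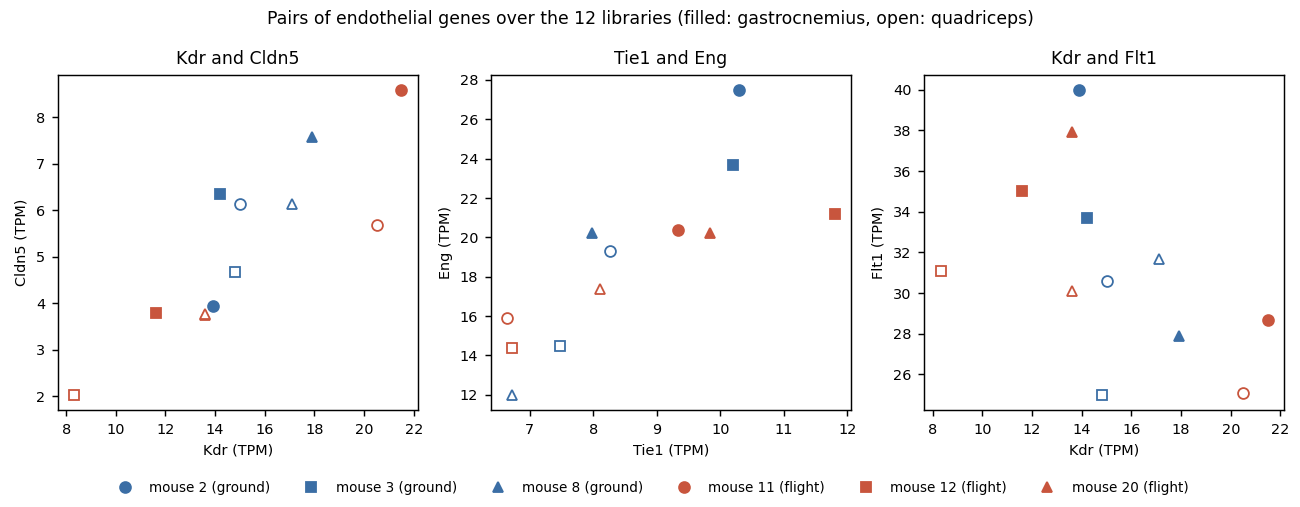
Each panel plots the TPM of 1 endothelial gene against another in the 12 libraries, filled for gastrocnemius and open for quadriceps, with color and shape for the mouse. *Kdr* and *Cldn5* rise together, with mouse 11 at the top and the quadriceps of mouse 12 at the bottom left; *Eng* and *Tie1* are lower in open points; *Flt1* tends to be lower where *Kdr* is higher.

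The 8 other genes most like the members' mean over the 12 libraries were *Vps37c* (r = 0.92), *Coro6* (0.91), *Sema6c* (0.90), *Acaa1a* (0.88), *Acd* (0.86), *Pdgfrb* (0.86), *Ptprk* (0.86) and *Hes1* (0.85). They were picked as the highest of all genes tested, so their correlations are high by selection. Group means were not taken out, so the muscle difference can be part of these values. *Pdgfrb*, which encodes the PDGF receptor of pericytes, was on the mural list, and none of the 8 was on an endothelial list.

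The pathways around the members were read from 6 lists, and none held a gene called between flight and ground in either muscle. Of the ligands and partner receptors of the VEGF, apelin and angiopoietin systems 8 of 16 were tested. *Vegfa*, the main angiogenic ligand, measured 176 ± 23.9 TPM in the ground quadriceps and 155 ± 2.77 TPM in the flight quadriceps (log2 fold change -0.18, limma adjusted p = 0.564), and the capillary-stabilizing ligand *Angpt1* 10.4 ± 1.68 and 8.33 ± 0.894 TPM (-0.28, adjusted p = 0.538). In the gastrocnemius the smallest p-values of the list belonged to *Nrp2*, a VEGF co-receptor at 6.87 ± 0.445 TPM on the ground and 9.32 ± 0.198 TPM after flight (0.39, adjusted p = 0.166), and *Vegfb* (-0.17, adjusted p = 0.518). Of the BMP9 and endoglin genes, 8 of 11 tested, *Id3* and *Smad7*, which respond to BMP signals, were at -0.54 (adjusted p = 0.338) and -0.42 (adjusted p = 0.363) in the gastrocnemius. In the quadriceps *Smad7* was at -0.32 (adjusted p = 0.523) and the receptor *Bmpr2* at -0.16 (adjusted p = 0.544). Of the Notch and arterial-venous genes, 10 of 15 tested, the ligands *Jag2* and *Dll1* were at 0.22 (adjusted p = 0.43) and 0.43 (adjusted p = 0.44) in the gastrocnemius, and the receptor *Notch4* and *Dll1* at 0.46 (adjusted p = 0.502) and 0.34 (adjusted p = 0.595) in the quadriceps. None of these differences passed the adjusted threshold. The *Nrp2* values did not overlap between flight and ground (unadjusted p = 0.00414 in limma). In that muscle the groups were also separate for 21% of all genes, and 15.1% had an unadjusted p under 0.05. Between the muscles none of the 3 lists held a called gene, but after rescaling by the median ratio the Notch list had 2 genes called lower on the ground and 1 after flight. Over all 10481 genes the rescaled fits called 155 and 158 lower. The VEGF list had medians of -0.11 on the ground and -0.12 after flight, which rescaling moved to -0.24 and -0.26. The Notch list had medians of -0.24, with 10 of 10 genes below 0, and -0.20, with 9 of 10, and of -0.36 and -0.32 after rescaling. The BMP9 and endoglin list was at -0.04 and 0.04, and at -0.16 and -0.08 after rescaling.

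Of the endothelial transcription factors 9 of 13 were tested. *Fli1*, an ETS factor, measured 9.61 ± 0.281 TPM in the ground and 12.5 ± 1.2 TPM in the flight gastrocnemius (0.34, limma adjusted p = 0.217) and was at -0.21 (adjusted p = 0.688) in the quadriceps, and *Gata2*, a GATA factor, was at -0.31 (adjusted p = 0.292) and 0.25 (adjusted p = 0.656). The muscle comparison called *Gata2* lower in the ground quadriceps, at 2.96 ± 0.582 against 5.49 ± 0.403 TPM (-0.72, SE 0.168, adjusted p = 0.0336), where 3.2% of all genes were called. Leaving out mouse 2, 3, 8 or 11 took its adjusted p to between 0.0557 and 0.133. Of 40 surface and junction genes of endothelium 31 were tested. *Adgrl4*, an adhesion receptor of endothelium, was at 0.29 (adjusted p = 0.183) in the gastrocnemius and 0.27 (adjusted p = 0.52) in the quadriceps, and the adhesion gene *Icam2* at -0.42 (adjusted p = 0.224) and *Ecscr* at -0.40 (adjusted p = 0.543) in the gastrocnemius and the quadriceps. Between the muscles 26 of the 31 lay below 0 on the ground (median -0.21) and 24 of 31 after flight (median -0.16). Only 1 was called, where 3.34% of all genes were called after flight. It was the scaffold gene *Shank3* after flight (-0.69, SE 0.14, adjusted p = 0.0196, 16.7 ± 2.12 against 27.5 ± 4.44 TPM). Leaving out mouse 11, 12 or 20 took its adjusted p to 0.0624, 0.125 and 0.0575. Rescaling by the median ratio gave this list 1 call on the ground and 2 after flight, all lower, with medians of -0.33 and -0.27, and gave the transcription factors 1 lower call in each condition. Over all 10481 genes the rescaled fits called 230 on the ground and 248 after flight, 155 and 158 of them lower.

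The list of fatty acid and water transport in capillaries, all 19 genes tested, leaned below 0 after flight, with 14 of 19 in the gastrocnemius (median -0.08) and 17 of 19 in the quadriceps (median -0.18), beside 46.4% and 47.9% of all genes. *Cd36*, a fatty acid carrier of endothelium, fiber and adipocyte, measured 203 ± 9.47 TPM on the ground and 167 ± 11.7 TPM after flight in the gastrocnemius (-0.28, limma adjusted p = 0.216), and 202 ± 13.2 and 168 ± 8.8 TPM in the quadriceps (-0.26, adjusted p = 0.347). *Lpl*, the lipase that endothelium displays and fibers make, measured 218 ± 10 and 157 ± 10.3 TPM in the gastrocnemius (-0.47, SE 0.08, adjusted p = 0.0963). *Fabp4*, a fatty acid binding protein of capillary endothelium and adipocytes, measured 292 ± 86.4 TPM in the ground and 175 ± 28.8 TPM in the flight quadriceps (-0.71, adjusted p = 0.352). None of these passed the adjusted threshold. *Fabp4* was called higher in the ground quadriceps than in the ground gastrocnemius, 292 ± 86.4 against 153 ± 13.1 TPM (0.89, SE 0.126, adjusted p = 0.00907), and *Slc9a3r2*, a scaffold for membrane transporters, was called lower (-0.60, SE 0.111, adjusted p = 0.0188). Both calls were lost without mouse 2 or mouse 3, at adjusted p of 0.0522 and 0.0553 for *Fabp4* and of 0.0957 and 0.0901 for *Slc9a3r2*, which was also lost without mouse 8 (0.0623) and in a fit with no mouse block (0.267). Adipocyte markers moved beside *Fabp4*: their 8 genes summed to between 98.4 and 221 TPM in the ground quadriceps, between 50.7 and 83.3 TPM in the flight quadriceps and between 39.5 and 106 TPM in the gastrocnemius. Of the 7 adipocyte genes tested, 7 lay below 0 after flight in the quadriceps (median -1.08) and 5 in the gastrocnemius (median -0.17), with none called. The part of adipocytes in the *Fabp4* values and in the lean of the transport list was not tested.

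Splicing was read for the members from the deposited skipped exon and mutually exclusive exon tables, which hold 2423 events in 1191 genes for the gastrocnemius and 2416 events in 1195 genes for the quadriceps. Other types of splicing event were not read. The study set aside events with few junction reads or with extreme inclusion in all samples, so a member without a listed event may still have alternative exons. *Pecam1* was the only member with an event, and it had the same 3 in both tables. All 3 lie in the stretch of the gene that encodes the cytoplasmic tail of the protein, through which PECAM1 signals, on the minus strand of chromosome 11 (mm10, GRCm38). Exon numbers follow an annotated transcript that holds all 3 exons, in which all of these bases are coding. The exons are shown because the events turn on them, with exon 12 at chr11:106681032-106681085, exon 14 at chr11:106671742-106671798 and exon 15 at chr11:106662002-106662024. Capitals mark the exon, and lower case the 15 bases of the neighboring exon on each side in the spliced transcript.
Exon 12: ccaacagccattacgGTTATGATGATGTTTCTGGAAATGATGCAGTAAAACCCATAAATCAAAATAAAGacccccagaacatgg
Exon 14: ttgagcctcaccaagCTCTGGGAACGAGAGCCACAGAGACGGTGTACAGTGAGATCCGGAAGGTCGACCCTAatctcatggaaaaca
Exon 15: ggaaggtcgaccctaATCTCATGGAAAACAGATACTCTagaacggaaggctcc

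Exons 12 and 14 are 54 and 57 bases long, whole numbers of codons, and exon 15 is 23 bases long, which is not. With all exons the reading frame ran for 727 codons before a stop in exon 16. It ran for 709 codons without exon 12, 708 without exon 14, 716 without exon 15 and 697 without exons 14 and 15, each time to a stop in exon 16. Of the 6 protein-coding transcripts annotated for the gene, 5 hold exon 12, 4 hold exon 14 and 2 hold exon 15.

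Percent spliced in (PSI) is the share of the inclusion form, from junction reads divided by the effective length of each form, and the intervals given are exact Clopper-Pearson 95% intervals that cover counting error only. The tables do not name their samples, so samples are given by list position, and which list is ground was read from the direction of the study's own differences. In the gastrocnemius exon 12 was included in 100%, 84.2% and 76% of the *Pecam1* form on the ground, from 36, 35 and 22 reads, and in 100% in all 3 flight samples, from 45, 22 and 26 reads. No skipping read was seen in 93 flight reads pooled over the 3 samples, which allows about 3 reads, or 3.23%, by an approximate bound. This is a share of raw reads and not of PSI, in which the skipping form has the shorter effective length, 49 against 98 bases. On the ground 6 of 93 reads skipped the exon, in 2 of the 3 samples. The difference was 13.3 percentage points (limma log2 ratio 1.95, SE 0.946, adjusted p = 0.576), with an exact permutation p of 0.4, two-sided, where 3 against 3 cannot go below 0.1. In the quadriceps the same exon was at 86.2%, 100% and 100% on the ground and at 76%, 80% and 100% after flight, with 2 of 80 and 8 of 96 reads skipping it. The difference there was -10.1 percentage points (log2 ratio -1.14, SE 1.19, limma adjusted p = 0.845, exact permutation p = 0.4). The estimates pointed in opposite directions in the muscles. The difference between them was tested after the values were seen, over the 1858 events kept in both and without a mouse block. Its limma adjusted p was 0.756.

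Exon 14 carries a tyrosine-based signaling motif of the tail. In the gastrocnemius its PSI was 73.3%, 76.9% and 60% on the ground and 58.3%, 100% and 81.8% after flight, from 9 to 23 reads a sample, and the values overlapped (9.97 percentage points, limma adjusted p = 0.851, exact permutation p = 0.5). Set against exon 15 as an exclusive choice, exon 14 was used at 80.2%, 78.6% and 74.6% on the ground and at 83.7%, 52.4% and 48.6% after flight. The intervals were wide: the lowest flight sample, 9 of 16 reads for exon 14, had an interval from 23.8% to 74.9%, and the lowest ground sample, 12 of 15 reads, one from 44.2% to 94.2%. The difference was -16.2 percentage points (limma adjusted p = 0.753, exact permutation p = 0.4). With 1 sample left out it ranged from -27.3 to -9.72 points, and that of exon 14 kept or skipped from -0.0097 to 20.8. For exon 12 the range was 7.89 to 19.9 points in the gastrocnemius and -17.4 to -5.4 in the quadriceps. Both events share the inclusion reads of exon 14, so they are not separate measurements. Since annotated transcripts hold exons 14 and 15 together, a read that joins exon 13 to exon 14 does not say that exon 15 was left out.

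In the quadriceps these 2 events had means of 5 to 7.67 reads a group and were not fitted. Exon 14 was kept in 66.7%, 100% and 0% on the ground and in 50%, 42.9% and 100% after flight (exact permutation p = 1). The third ground sample, with 0 of 11 reads (interval 0% to 16.6%), lay apart from the third flight sample, with 6 of 6 (interval 37.1% to 100%), while the ground samples themselves ran from 0% to 100%. Set against exon 15, exon 14 was used at 59.5%, 26.9% and 0% on the ground and at 59.5%, 52.4% and 100% after flight, a difference of 41.9 percentage points with an exact permutation p of 0.3, in the direction opposite to the gastrocnemius; the difference between the muscles was not tested. Over all events, 8 of 2118 (0.378%) were called in the gastrocnemius and 0 of 2062 (0%) in the quadriceps, with 201 (9.49%) and 158 (7.66%) at an unadjusted p under 0.05. None of the 4 tested *Pecam1* events was called here. The study, with rMATS-turbo at the same limits on adjusted p and PSI difference, reported more events in each muscle. Few calls in the limma fits are therefore not evidence that splicing was unchanged.

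**Figure D5:**
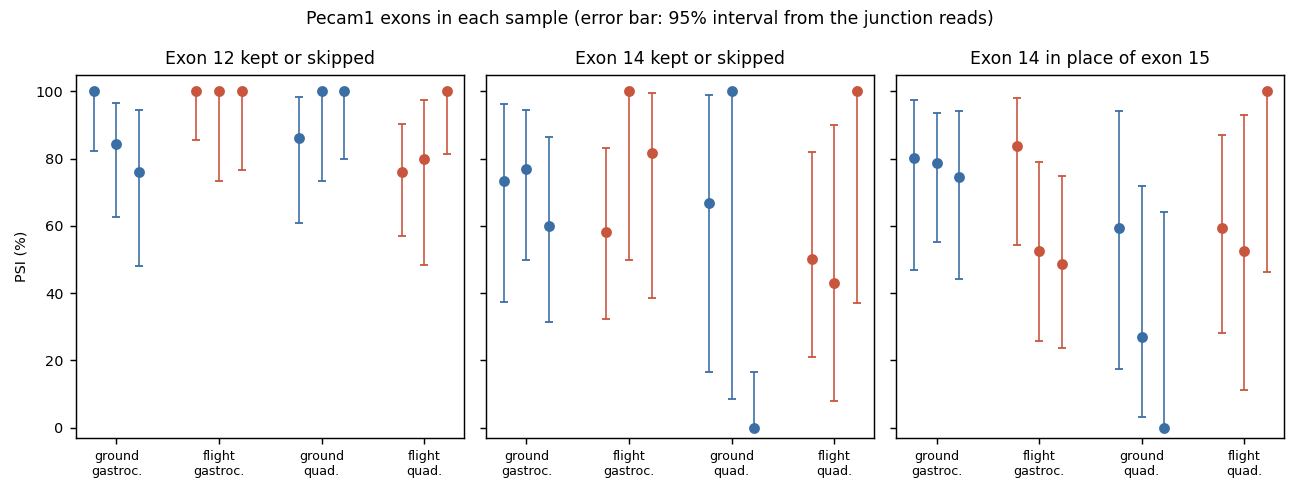
The vertical axis is PSI in percent for the 3 *Pecam1* events in each sample of the 4 groups (blue ground, red flight, in list order), with exact 95% intervals from the junction reads. All flight gastrocnemius samples are at 100% for exon 12, and most intervals overlap between groups.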

How the data were processed

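The deposited expression table holds TPM, which the authors made from single-end polyA libraries with kallisto 0.46.0 (version per the submitters' processing notes) and summed per gene with tximport. The authors' splicing tables, made with STAR 2.7.1a on mm10 and rMATS-turbo, hold junction read counts per sample as comma-joined lists with effective lengths, and the authors' PSI, PSI difference, p and FDR columns, which were not used. TPM columns were mapped by the sample titles. The splicing columns name no sample and were mapped only to groups, ground or flight by the sign of the study's own differences, and 0 sample columns stayed unmapped.

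Genes above 5 TPM in at least 1 library were kept. Log2(TPM + 1) was fitted with limma 3.58.1 in R 4.3.3 (lmFit, eBayes with trend, two-sided, Benjamini-Hochberg over 10481 genes). Calls needed an adjusted p below 0.05 together with more than 1.5-fold. Gene levels of the muscles were compared with mouse as a block, since both came from the same 6 animals (correlations of deviations -0.12 to 0.33). The splicing difference between the muscles was fitted without a mouse term and so ignores this pairing. Events with a mean over 10 junction reads in both groups, and not at a PSI of 0.05 or less or 0.95 or more in all 6 samples, were tested on the log2 ratio with 0.5 added. A sample with no junction read was left out of that event's fit. Ground and flight mice are separate animals, so p-values of flight against ground measure the spread between 3 mice a group. Those of the muscle comparisons of gene levels measure the spread of the muscle difference within a mouse, shared over the 6 mice. Scripts were tested on simulated data. The members and lists (6 pathway, 12 marker) were chosen with earlier results of these data known. Named genes were all members and their events, each called gene of a pathway list or else its 2 smallest p-values in each flight comparison, and the 8 genes most correlated with the members' mean. Alternatives were pseudocounts of 0.1 and 5, no filter, median ratio scaling, no trend, blocks, other event settings, and leaving out each mouse.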

Additional observations from a re-analysis of the deposited data

How the results depend on the processing

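No member was called between flight and ground under any of the 260 combinations of member, muscle and alternative setting. Counts over all genes moved more. In the gastrocnemius, 24 genes became 4 with no filter, 5 without a trend and 1 to 133 when a library was left out (133 without mouse 11). In the quadriceps, 3 became 1 with a pseudocount of 5, with median ratio scaling or without a trend, and 1 to 4 with a library left out. With the replicate number as a block, both counts were 0; the numbers do not pair the animals (correlations of deviations -0.18 to 0.11). The members' flight medians stayed between -0.051 and 0.043 in the gastrocnemius and between -0.075 and 0.079 in the quadriceps when a library was left out.

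Between the muscles, 335 genes on the ground became 187 with a pseudocount of 5, 77 with no filter and 36 to 335 without a mouse (36 without mouse 3, 93 without mouse 2, 110 without mouse 8), and 350 after flight became 216, 200 and 77 to 354 (77 without mouse 12). With median ratio scaling the members' medians were -0.220 and -0.308. The fit with no mouse block called 272 and 320, with *Eng* at an adjusted p of 0.0284 and 0.147 and *Tie1* at 0.165 and 0.0407. *Eng* on the ground missed the 1.5-fold limit with a pseudocount of 5 (-0.51) and the adjusted threshold with no filter (0.0507). The called list genes also missed the adjusted threshold with no filter, *Gata2* at 0.077, *Shank3* at 0.0816, *Fabp4* at 0.0575 and *Slc9a3r2* at 0.0713 in limma. With a pseudocount of 5, *Gata2* (-0.40), *Shank3* (-0.58) and *Slc9a3r2* (-0.51) missed the 1.5-fold limit, and *Fabp4* (0.88) stayed called. The difference of the flight effect had 2 calls with no filter and 0 to 1 without a mouse. Gastrocnemius splicing events went from 8 to 0 with no trend, 36 weighted by reads and 1 to 9 without a sample; the quadriceps count became 18 when weighted. Over the single genes and events named, 992 alternative values had the outcome of the main fit, which for most was no call. A call was lost in 25 and gained in 1. The losses fell on *Eng*, *Gata2*, *Shank3*, *Fabp4* and *Slc9a3r2*, and *Eng* on the ground kept its call in 7 of 12 alternatives. The cause of these shifts was not tested. TPM carry no depth, so counting error of the lowest members is unknown.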

Other observations

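Other cell types of vessel and blood gave the following summed levels. Lymphatic endothelial genes (7, of which 2 were tested) ranged from 9.78 to 23.4 TPM over the 12 libraries. Of the 2, *Reln* was called lower in the quadriceps on the ground and after flight, where 3.2% and 3.34% of all genes were called. Platelet genes (8, of which 1 was tested) ranged from 5.31 to 12.7 TPM, and *Gp1bb* was listed at 0 in all libraries of 3 of the groups. Erythroid genes ranged from 351 to 902 TPM, and 4 or 5 of the 5 tested lay below 0 after flight in each muscle, with none called. Leukocyte genes ranged from 3.28 to 37.4 TPM, and were between 26 and 37.4 TPM in the flight quadriceps against 3.28 to 5.58 TPM in the flight gastrocnemius. Fibroblast and tendon genes ranged from 233 to 350 TPM and satellite cell genes from 7.2 to 9.99 TPM.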
